A study of Homo sapiens with 18 samples.

Results

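The subunits of the proteasome were followed at the level of their mRNAs and of ribosome footprints on their coding sequences in human fibroblasts that were proliferating, replicatively senescent, or treated with inflachromene (ICM), a compound that targets HMGB1 and HMGB2, abundant DNA-bending proteins of chromatin. The members were the genes whose symbol begins with PSMA, PSMB, PSMC, PSMD or PSME followed by a number only, and that held at least 20 coding-sequence reads summed over the 9 Ribo-seq libraries. Of 38716 listed genes, 43 had such a symbol and 41 were members, and the other two were PSMA8, with 0.5 reads, and PSMB11, with 0 reads, both subunits of tissue-specific proteasomes of testis and thymus. By role they comprised 7 alpha-ring and 7 constitutive beta-ring subunits of the core particle, 3 inducible beta subunits of the immunoproteasome, 6 ATPases, 3 further subunits of the base, 8 subunits of the lid, 3 assembly chaperones of the regulatory particle, and 4 activators.

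The proteasome is the chamber in which cells degrade proteins tagged with ubiquitin. Its barrel-shaped core is built of outer alpha rings, which gate entry, and inner beta rings, which hold the protease sites, and a regulatory particle on the ends of the barrel binds ubiquitin (lid and base), unfolds the substrate with a ring of ATPases and threads it in. Interferon swaps the catalytic beta subunits for the inducible ones PSMB8, PSMB9 and PSMB10 and raises the PSME1-PSME2 activator, and the transcription factors NFE2L1 and NFE2L2 raise most subunit genes together when proteasome activity falls or under oxidative stress. Proteasome activity is known to decline in senescent fibroblasts.

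All samples were IMR90 cells, a line of normal human fetal lung fibroblasts that ages in culture. The young group was proliferating at low passage, the old group had been passaged until replicative senescence, and the ICM group was of low passage and received inflachromene. Replicates were grown independently. Each condition had 3 lysates, each of which gave 1 Ribo-seq and 1 mRNA-seq library, so that the 18 libraries fall into 6 groups of 3. A vehicle-treated group was not analysed here, so an effect of the vehicle and one of inflachromene cannot be told apart. ICM and old cells were both compared with the same 3 young libraries of each assay, and p-values measure the spread between replicates of 1 cell line.

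The mRNA-seq libraries held between 7902427 and 14144455 reads in annotated coding transcripts and between 44002 and 74712 reads of proteasome subunits. The Ribo-seq libraries were shallower and far less even, with 46239 to 1718521 coding-sequence reads and with 489, 6382 and 15236 subunit footprints in young 1 to 3, 12978, 429 and 4309 in old 1 to 3, and 2052, 584 and 348 in ICM 1 to 3. Of these, young 1, old 2 and ICM 3 stood apart. The 14 genes whose mRNA was most raised in ICM cells summed to 673 footprint CPM (counts scaled to a common library size) in young 1 and 825 in old 2, against 70.6 to 95.3 in the other young and old libraries. The 64 genes most lowered in ICM cells summed to 1895 CPM in ICM 3, against 133 and 409 in the other ICM libraries. The counts of footprint calls are therefore also given without these 3 libraries, with the change of a single member where its call or size turned on them. By the same sums the mRNA-seq libraries of these lysates did not stand apart. The 14 genes held 31.8 mRNA CPM in young 1 and 19.6 in old 2, against 17.8 to 37 in the other young and old libraries. The 64 genes held 48.2 mRNA CPM in ICM 3, against 45.3 and 47.7 in the other ICM libraries. All 8 fibroblast markers were detected, and summed to 30131 to 34134 mRNA CPM in young, 29259 to 33973 in old and 12723 to 13137 in ICM cells. The endothelial marker CDH5 and the T cell marker CD3E were at 0. The 4 endothelial markers summed to 0.62 to 0.697 CPM in young, 0.834 to 1.04 in old and 3.6 to 4.49 in ICM cells, the 4 leukocyte markers to 19.6 to 21.5, 32.4 to 35.5 and 53.9 to 66, and the 4 epithelial markers to 299 to 317, 241 to 264 and 44.2 to 50.4. The part of these shifts in the results below was not tested.

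The promoters of PSMB9 and TAP1 are shown first because the largest mRNA fall among the subunits, that of PSMB9, had a neighbour that rose. PSMB9 and TAP1, which encodes a chain of the peptide transporter that feeds proteasome products to MHC class I molecules, are transcribed away from each other on chromosome 6, with 487 bases between their start sites at 32854192 and 32853704 (RefSeq, GRCh38.p14). The 250 bases before each start therefore share 13 bases and together cover the whole interval. Each is printed 5′ to 3′ in the direction of its own gene, with motif matches in capitals. PSMB9 lies on the plus strand (chr6:32853942-32854191) and TAP1 on the minus strand (chr6:32853705-32853954).
PSMB9: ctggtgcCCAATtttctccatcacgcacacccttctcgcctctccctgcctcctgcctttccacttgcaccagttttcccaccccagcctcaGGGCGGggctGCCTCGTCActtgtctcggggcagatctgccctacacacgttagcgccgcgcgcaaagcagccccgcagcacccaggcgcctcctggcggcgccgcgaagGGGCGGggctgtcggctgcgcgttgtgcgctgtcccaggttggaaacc
TAP1: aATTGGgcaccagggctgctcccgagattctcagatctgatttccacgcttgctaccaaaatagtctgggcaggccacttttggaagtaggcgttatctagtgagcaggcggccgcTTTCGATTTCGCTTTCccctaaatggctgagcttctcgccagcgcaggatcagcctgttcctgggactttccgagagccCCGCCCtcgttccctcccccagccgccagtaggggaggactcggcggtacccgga

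The capitals in the PSMB9 sequence mark a CCAAT box at -243 to -239, GC boxes (GGGCGG) at -158 to -153 and -48 to -43, and a match to the core of the antioxidant response element (TGACNNNGC, read on the other strand) at -148 to -140, counted from the start site. Those in the TAP1 sequence mark the same CCAAT box on the other strand, overlapping matches to the core of the interferon-stimulated response element (GAAANNGAAA, on the other strand) at -134 to -125 and -128 to -119, and a GC box at -55 to -50. Promoters were found by symbol for 36 of the 41 members. On either strand of these 250 bases, 9 of the 36 (25%) held TGACNNNGC against 11% of 27305 promoters, 16 (44.4%) held CCAAT against 33%, 8 (22.2%) held the ETS motif CCGGAAG against 8.82%, 23 (63.9%) held GGGCGG against 42.3%, 4 (11.1%) held GAAANNGAAA against 3.07%, and 4 (11.1%) held TTCNNNGAA, the core of the gamma-activated site, against 6.78%. The matches are sequence descriptions and were not tested for binding.

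Among inducible members and activators, the core of the interferon-stimulated element lay just before the start of PSMB10 (-21 to -12, chr16:67936852-67936881, minus strand) and of PSME2 (-28 to -19, chr14:24146619-24146648, minus strand), with the same 10 bases in both. Matches to the antioxidant response element core lay before all the activators except PSME3, at -86 to -78 in PSME1 (chr14:24136098-24136126, plus strand), -175 to -167 in PSME2 (chr14:24146767-24146795, minus strand) and -34 to -26 in PSME4 (chr2:53971009-53971037, minus strand). They are shown because these genes, whose promoters share motifs, gave unlike mRNA results below (PSME4 rose and PSME1 fell in old cells, PSMB10 rose in ICM cells, and PSME2 passed no test). The motif is in capitals with 10 flanking bases on each side, and the chromosome ranges are those of the whole printed stretch.
PSMB10, interferon-stimulated core: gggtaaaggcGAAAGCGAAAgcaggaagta
PSME2, interferon-stimulated core: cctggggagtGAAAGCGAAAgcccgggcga
PSME1, antioxidant core: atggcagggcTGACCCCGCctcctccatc
PSME2, antioxidant core: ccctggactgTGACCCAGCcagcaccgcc
PSME4, antioxidant core on the other strand: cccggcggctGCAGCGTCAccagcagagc

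Counting both directions, subunit mRNAs were called less often than all genes in each comparison, and mostly changed by little. Of all genes, 71% were called in ICM against young, 66.1% in old against young and 63.3% in ICM against old cells. Against young cells the shortfall was in the rises, and the share of falls was slightly above that of all genes. Against young cells, 10 of 41 rose and 17 fell in ICM cells, where 34.9% and 36.1% of all 13173 genes tested rose and fell, and 4 rose and 15 fell in old cells, where 32.4% and 33.7% of all genes did. Between ICM and old cells 12 were higher in ICM and 7 lower, against 30.7% and 32.6% of all genes. A gene was called when its adjusted p in edgeR's quasi-likelihood test was under 0.05. The median log2 change of the subunits was -0.06 in ICM and -0.06 in old cells (all genes -0.01 and -0.01). The interquartile range of the subunits was 0.43 in ICM and 0.24 in old cells, narrower than the 0.92 and 0.80 of all genes. A log2 change beyond 1 in either direction was seen for 0 subunit mRNAs in ICM cells and for 1, PSMB9, in old cells, and for 2749 and 2117 of all genes. These samples are bulk lysates, in which fewer cells with a transcript and less transcript per cell cannot be told apart.

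Footprints, counted over coding sequences, followed the same members with much larger errors. In ICM against young cells 1 of 40 subunits tested rose and 3 fell (13.7% and 12.9% of 4643 genes tested), in old against young cells 1 rose and 6 fell (19.3% and 17%), and in ICM against old cells 2 were higher and 1 lower (5.79% and 7.62%). The median log2 change was -0.14 in ICM and -0.22 in old cells, where the median over all genes was 0.00 and 0.02. DESeq2 called 0 up and 1 down, 1 up and 0 down, and 0 up and 1 down in the same order, and without young 1, old 2 and ICM 3 the calls were 1 up and 6 down, 1 up and 8 down, and 2 up and 3 down. Of the subunit footprint calls named below, that of PSMD7 was lost without these 3 libraries and the others were kept. Footprint calls of genes outside the subunits, named further below, were not checked in this way. When the mRNA-seq libraries were thinned to the depth of the Ribo-seq library of the same lysate, 0, 14 and 2 subunits were called in place of 27, 19 and 19, so fewer footprint calls and lower depth cannot be told apart.

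Translational efficiency, the footprint change over the mRNA change of the same lysates, was called for 0 of 40 subunits in each of the comparisons by edgeR and by DESeq2, while 2.38%, 1.43% and 0.346% of 4618 genes were called by edgeR in ICM against young, old against young and ICM against old cells. At an unadjusted p under 0.05 there were 5, 4 and 1 subunits. In simulated data for ICM against young cells, this fit recovered 91 of 200 changes of 2-fold (45.5%). The 0 calls therefore do not show that efficiency was unchanged. The lowest adjusted p values were those of PSMD1, 0.106 in ICM against young cells (log2 change 0.70) and 0.115 in ICM against old cells (0.84), of PSMA3, 0.114 in ICM against young cells (-0.78), and of PSME4, 0.121 in old against young cells (-0.86). The plot of log2 changes by subunit shows both assays side by side.

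**Figure D1:**
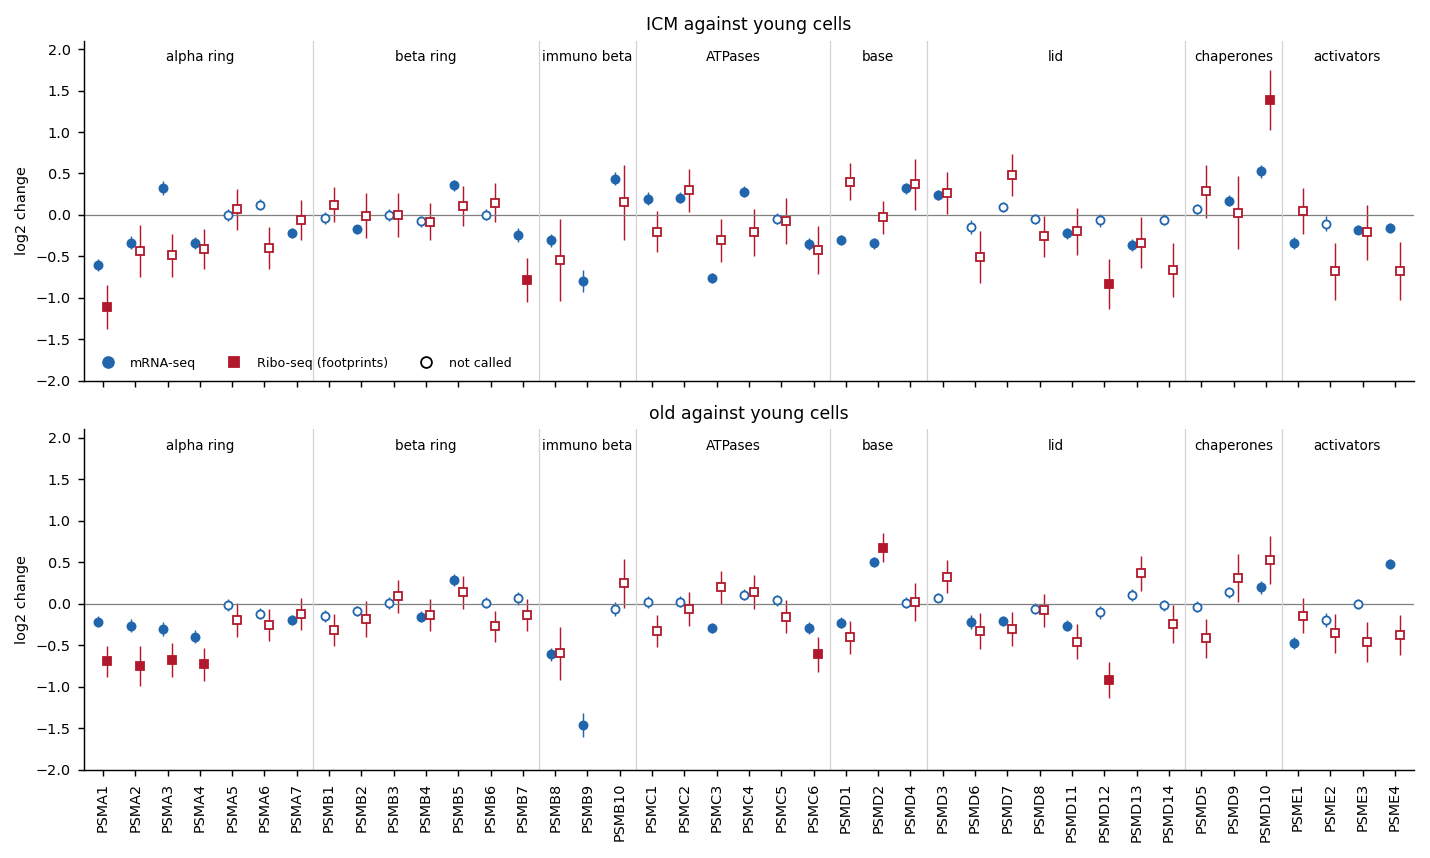
Log2 change of each of the 41 proteasome subunits against young cells, in ICM cells (upper panel) and old cells (lower panel), for mRNA-seq (blue circles) and Ribo-seq coding-sequence footprints (red squares), with bars of 1 standard error (n = 3 libraries a condition) and filled points where the adjusted p was under 0.05. Most mRNA changes lie within 0.5 of zero, PSMB9 falls lowest in old cells, and the footprints of PSMA1 to PSMA4 sit lower than their mRNAs in old cells.

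The alpha ring was lower in old cells in both assays, and its medians were also negative in ICM cells. All 7 alpha mRNAs had a negative log2 change in old against young cells, from -0.40 to -0.02, with a median of -0.21. Of them 5 were called down, where 33.7% of all genes were. The footprints of all 7 were also lower, with a median of -0.68, and 4 were called down, against 17% of all genes. PSMA1, PSMA2, PSMA3 and PSMA4 were these footprint falls. In ICM against young cells the alpha medians were -0.21 in mRNA and -0.41 in footprints. There 1 of the mRNAs was called up and 4 down, and 0 and 1 of the footprints, where 36.1% and 12.9% of all genes fell. PSMA1 had 277, 307 and 282 footprint CPM in young, 174, 221 and 183 in old, and 128, 150 and 137 in ICM libraries 1 to 3. The 3 conditions did not overlap, and the log2 changes were -0.69 ± 0.19 (SE, adjusted p = 0.00414) in old and -1.11 ± 0.27 (adjusted p = 0.00196) in ICM cells. Its mRNA went the same way, with 146, 145 and 139 CPM in young, 125, 135 and 110 in old and 101, 89.8 and 92.1 in ICM cells, so that every ICM library was below every old one and every old one below every young one (log2 change -0.21 and -0.60 against young). The old mRNA change was -0.14 without old 3 (adjusted p = 0.0807).

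PSMA4 footprints were 257, 358 and 387 CPM in young and 234, 241 and 191 in old cells, without overlap, at a log2 change of -0.73 ± 0.20 (adjusted p = 0.00409). PSMA2 footprints were 158, 355 and 298 CPM in young and 191, 201 and 168 in old cells, and the groups overlapped only through young 1, a library of 8 PSMA2 reads. PSMA3 footprints were 218, 283 and 292 CPM in young, and 181, 302 and 146 in old cells, where old 2, with 15 reads, was the highest of the 6. The alpha calls in old cells depended on single libraries. Without young 2 no subunit footprint was called in old cells and without young 3 only 1 was. PSMA1, PSMA2 and PSMA3 also lost their calls without old 1 (adjusted p = 0.0774, 0.0983 and 0.0797), and PSMA2, PSMA3 and PSMA4 without old 3 (0.148, 0.167 and 0.083). DESeq2 gave adjusted p values of 0.116, 0.362, 0.268 and 0.0868 for PSMA1 to PSMA4. Without young 1, old 2 and ICM 3 the log2 changes of PSMA4 and PSMA2 were -0.77 and -0.81 and both passed (adjusted p = 0.000582 and 0.00155).

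PSMA3 was the 1 alpha mRNA called up in ICM against young cells. It held 81.4, 84.9 and 94.7 CPM in young, 69.5, 80.4 and 60.6 in old, and 111, 108 and 109 in ICM cells. The conditions did not overlap, with log2 changes of 0.33 ± 0.08 in ICM and -0.31 ± 0.08 in old against young, and 0.64 ± 0.08 in ICM against old cells (adjusted p = 5.42e-07). Its footprints in ICM cells were 197, 177 and 251 CPM, within and below the young range (log2 change -0.49, adjusted p = 0.173). Of the other alpha mRNAs in ICM cells, PSMA1, PSMA2, PSMA4 and PSMA7 fell, and PSMA5 and PSMA6 did not pass the test. PSMA6 was at 136 to 141 CPM in ICM and 127 to 128 in young cells, without overlap. Many other subunit mRNAs did not overlap in this comparison either, and the share over all genes was not computed. PSMA6 was called higher in ICM than in old cells.

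The constitutive beta ring had few calls. In ICM cells 1 of 7 mRNAs rose and 2 fell, in old cells 1 rose and 1 fell, and the medians were -0.04 and 0.01. PSMB5, the chymotrypsin-like protease subunit, was the rise in both: its mRNA held 194, 191 and 184 CPM in young, 251, 239 and 202 in old and 246, 247 and 235 in ICM cells. Both conditions lay above all young libraries, at 0.28 ± 0.07 and 0.36 ± 0.07 log2. PSMB5 footprints, at 654, 419 and 340 CPM in young against 502, 282 and 443 in old and 478, 368 and 457 in ICM cells, overlapped throughout and passed no test. The footprints of PSMB7, the trypsin-like subunit, fell in ICM cells from 317, 324 and 266 to 182, 123 and 206 CPM, without overlap (log2 change -0.79 ± 0.26, adjusted p = 0.0242), though the ICM libraries held 37, 9 and 9 of its reads and DESeq2 gave an adjusted p of 0.0765. The call was lost without young 2 (0.102), ICM 1 (0.0679) or ICM 2 (0.0876). Its mRNA fell by 0.24 on the log2 scale. The change was -0.17 without the lysates of young 1, old 2 and ICM 3 (adjusted p = 0.106), whose mRNA-seq libraries did not stand apart.

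The inducible beta subunits split. PSMB9, which replaces the caspase-like subunit in the immunoproteasome, had the largest mRNA change of all members, from 19.7, 14.5 and 15.2 CPM in young to 6.45, 6.01 and 5.19 in old and 8.64, 8.51 and 10.9 in ICM cells. None of the groups overlapped. The log2 change was -1.47 ± 0.14 in old (adjusted p = 8.49e-09) and -0.80 ± 0.13 in ICM cells (adjusted p = 1.14e-05), and ICM cells were above old cells by 0.67 ± 0.15. PSMB8, which replaces PSMB5, fell in the same order, with 34.2, 34.7 and 34.5 CPM in young, 22.8, 23.6 and 21.3 in old, and 26.5, 29.8 and 27.7 in ICM cells (log2 change -0.61 ± 0.08 and -0.30 ± 0.08).

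PSMB10, which replaces PSMB7, did not follow them. Its mRNA was 31.9, 33 and 30.2 CPM in young, 28.1, 33.7 and 28.9 in old, and 42.7, 43.5 and 42.9 in ICM cells. Young and old overlapped (log2 change -0.06, adjusted p = 0.538), and all ICM libraries were higher than both (0.44 ± 0.08 against young and 0.50 ± 0.08 against old). Footprints of the inducible subunits were few. PSMB9 had 2, 11 and 40 reads in young, 10, 0 and 5 in old and 3, 0 and 0 in ICM libraries 1 to 3, and did not pass the filter on low counts. PSMB8 had 14, 1 and 0 reads in ICM cells, where its log2 change of -0.55 against young did not pass the test (adjusted p = 0.449). That value rested on ICM 1, without which it was -3.04 (adjusted p = 0.0552).

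TAP1, whose promoter is printed above beside that of PSMB9, moved the other way in mRNA. It held 63.3, 56.8 and 53 CPM in young, 100, 92.2 and 96.6 in old and 82.6, 80.3 and 80.5 in ICM cells, higher in every old and ICM library than in any young one, at log2 changes of 0.74 ± 0.07 in old and 0.50 ± 0.07 in ICM cells. TAP1 footprints also rose in old cells (log2 change 0.95 ± 0.30, adjusted p = 0.0136). In the GENCODE v44lift37 annotation of GRCh37 the PSMB9 gene (chr6:32811913-32827628) spans TAP1 on the opposite strand, and whether reads were assigned by strand is not given in the sources used here, so reads of one may be counted with the other.

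**Figure D2:**
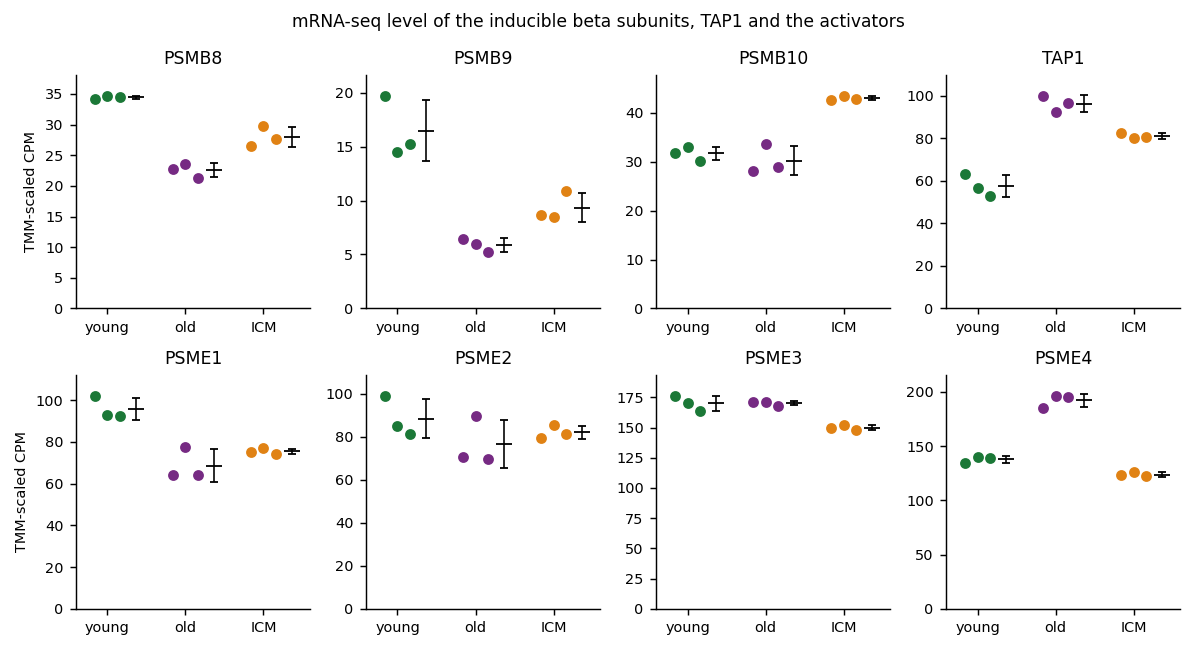
mRNA-seq level (CPM after TMM scaling, axes from 0) of the inducible beta subunits PSMB8, PSMB9 and PSMB10, of TAP1 and of the activators PSME1 to PSME4 in each of the 9 libraries, coloured by condition, with the mean and SD (n = 3) in black. PSMB8 and PSMB9 are lowest in old cells, PSMB10 is highest in ICM cells, and TAP1 and PSME4 are highest in old cells.

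The base held the most divided member. Of the 6 ATPase mRNAs, 3 rose and 2 fell in ICM cells and 0 rose and 2 fell in old cells. PSMC3, an ATPase of the ring, fell in both, from 174, 170 and 160 CPM in young to 138, 143 and 131 in old and 98.1, 99.4 and 101 in ICM cells, with no overlap between conditions. Its log2 change was -0.29 ± 0.06 in old and -0.76 ± 0.06 in ICM cells (adjusted p = 2.45e-10), and its footprints, at 357, 268 and 267 CPM in young, 352, 241 and 289 in old and 276, 123 and 206 in ICM cells, passed the test in neither. The ATPase PSMC6 fell in footprints in old cells, from 178, 241 and 204 to 146, 121 and 140 CPM without overlap (log2 change -0.61 ± 0.21, adjusted p = 0.0227, 0.26 in DESeq2). The call was lost when any of young 2, young 3 or the old libraries was left out (adjusted p = 0.269, 0.143, 0.0983, 0.0768 and 0.0874), and its mRNA fell there by 0.30 on the log2 scale.

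PSMD2, the scaffold of the base that docks ubiquitin receptors, rose in old and fell in ICM cells. Its mRNA held 504, 480 and 491 CPM in young, 734, 673 and 677 in old and 395, 400 and 367 in ICM cells. No library of one condition overlapped another, at log2 changes of 0.50 ± 0.06 in old, -0.34 ± 0.06 in ICM, and -0.84 ± 0.06 between ICM and old cells (adjusted p = 5.71e-11). The old rise was also in the footprints, at 673, 620 and 624 CPM in young, 1003, 966 and 1032 in old and 690, 600 and 480 in ICM cells. All old libraries lay above all others (log2 change 0.68 ± 0.17 against young, adjusted p = 0.0022, and DESeq2 adjusted p = 0.00998). ICM and young footprints overlapped. It was the 1 member that DESeq2 called in the footprints of old cells, and the edgeR call was lost without young 2 (adjusted p = 0.0693) or young 3 (0.0641).

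PSMD1, the other large scaffold of the base, had lower mRNA in both conditions (log2 change -0.23 in old and -0.30 in ICM cells). Its footprints were 337, 395 and 368 CPM in young, 255, 282 and 320 in old and 517, 614 and 274 in ICM cells. ICM 1 and ICM 2 were the highest of the 9 libraries while ICM 3 lay among the old ones, and ICM was above old cells by 0.81 ± 0.23 log2 (adjusted p = 0.0133, 0.0604 in DESeq2). That call was lost without old 1, old 2, ICM 1 or ICM 2 (adjusted p = 0.179, 0.0574, 0.187 and 0.0874). PSMD4, a ubiquitin receptor of the base, had higher mRNA in ICM cells (log2 change 0.32) and 85.9, 83.5 and 84.6 CPM in young cells against 105, 110 and 103.

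**Figure D3:**
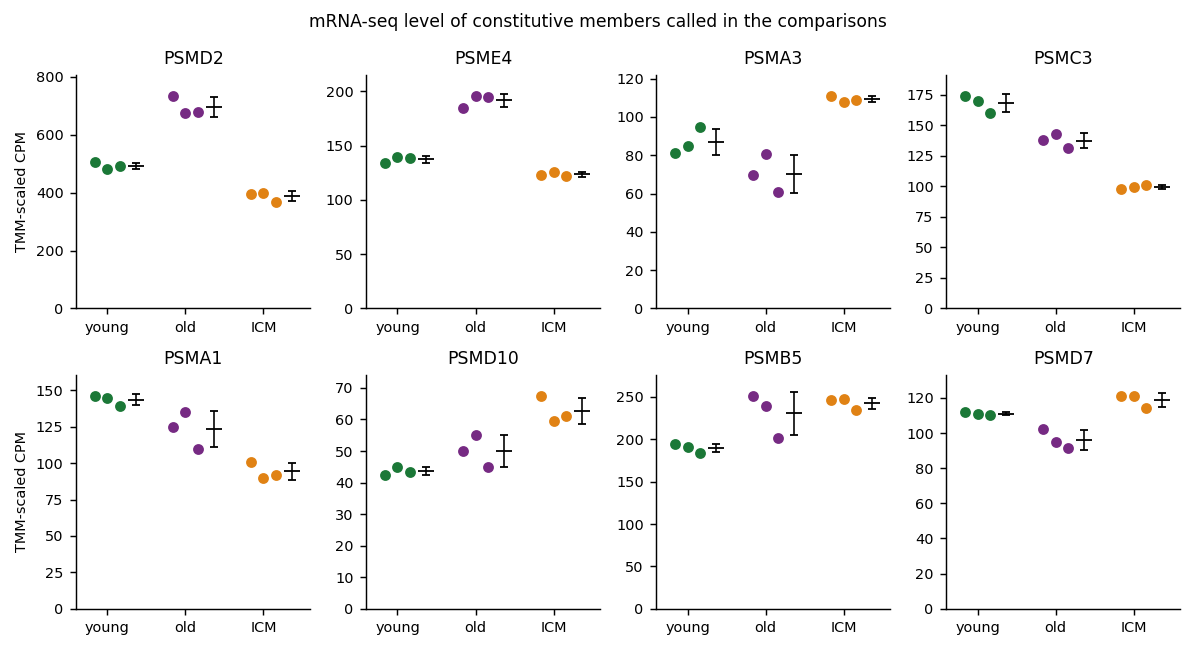
mRNA-seq level (CPM after TMM scaling, axes from 0) of PSMD2, PSME4, PSMA3, PSMC3, PSMA1, PSMD10, PSMB5 and PSMD7 in each of the 9 libraries, coloured by condition, with the mean and SD (n = 3) in black. PSMD2 and PSME4 are highest in old cells and lowest in ICM cells, PSMA3 shows the reverse order, and PSMC3 and PSMA1 step down from young to old to ICM.

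In the lid 1 of 8 mRNAs rose and 2 fell in ICM cells and 0 rose and 3 fell in old cells. PSMD3, a lid scaffold, was the ICM rise (174, 175 and 174 CPM in young, 205, 211 and 201 in ICM cells). PSMD13 and PSMD11, structural subunits of the lid, were the ICM falls, at -0.36 and -0.22 log2. PSMD12, also a structural lid subunit, was the largest footprint fall in old cells, from 158, 219 and 200 CPM in young to 114, 121 and 96.5, with 88.7, 150 and 160 in ICM cells. The old libraries lay below all young ones (log2 change -0.92 ± 0.21, adjusted p = 0.000948), while the ICM libraries overlapped them (-0.83 ± 0.30, adjusted p = 0.0395). DESeq2 gave 0.08 and 0.259. The ICM change was -0.52 without ICM 1 (adjusted p = 0.421) and lost its call without young 2 (0.191) or young 3 (0.145), and the old call was lost without young 2 (0.0673).

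PSMD12 mRNA was level in both comparisons, with 64.3, 60.7 and 73 CPM in young, 61.7, 66.3 and 56.3 in old and 64.7, 59.9 and 64.8 in ICM cells. The difference between the footprint and mRNA changes in old cells, -0.76 ± 0.25 log2, did not pass the test (adjusted p = 0.167). PSMD7, the partner of the lid's deubiquitinase PSMD14, had 148, 121 and 129 footprint CPM in old and 281, 191 and 183 in ICM cells, which did not overlap (log2 change 0.78 ± 0.26, adjusted p = 0.0404, 0.221 in DESeq2). The difference was 0.31 without ICM 1 (adjusted p = 0.713) and 0.73 without young 1, old 2 and ICM 3 (0.0679), and the call was also lost without any of the 3 old libraries (0.0928, 0.155 and 0.146) or ICM 3 (0.0569). PSMD7 mRNA was higher in ICM than in old cells by 0.31.

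Of the assembly chaperones, which join the base during assembly and are not in the finished particle, PSMD10 (gankyrin) rose in every comparison of its mRNA with young cells. It held 42.4, 45 and 43.3 CPM in young, 49.9, 55 and 44.9 in old and 67.4, 59.5 and 61 in ICM cells. Every ICM library was above every other, and old 3 reached into the young range (log2 change 0.52 ± 0.08 in ICM and 0.20 ± 0.08 in old cells). The old change was 0.12 without old 2 (adjusted p = 0.209), and its call was also lost without old 1, young 1 or young 3 (0.0651, 0.0735 and 0.0765) and with DESeq2 (0.0509). Its footprints were 59.4, 60.7 and 63 CPM in young, 91, 60.4 and 90.3 in old, and 207, 164 and 0 in ICM cells, where ICM 3 had 0 reads. The log2 change in ICM cells was 1.38 ± 0.37 (adjusted p = 0.00437, 0.127 in DESeq2). It was 0.60 without ICM 1 (adjusted p = 0.516), lost its call without young 2 (0.0761) or young 3 (0.08), and was 1.54 without young 1, old 2 and ICM 3 (adjusted p = 0.000384).

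**Figure D4:**
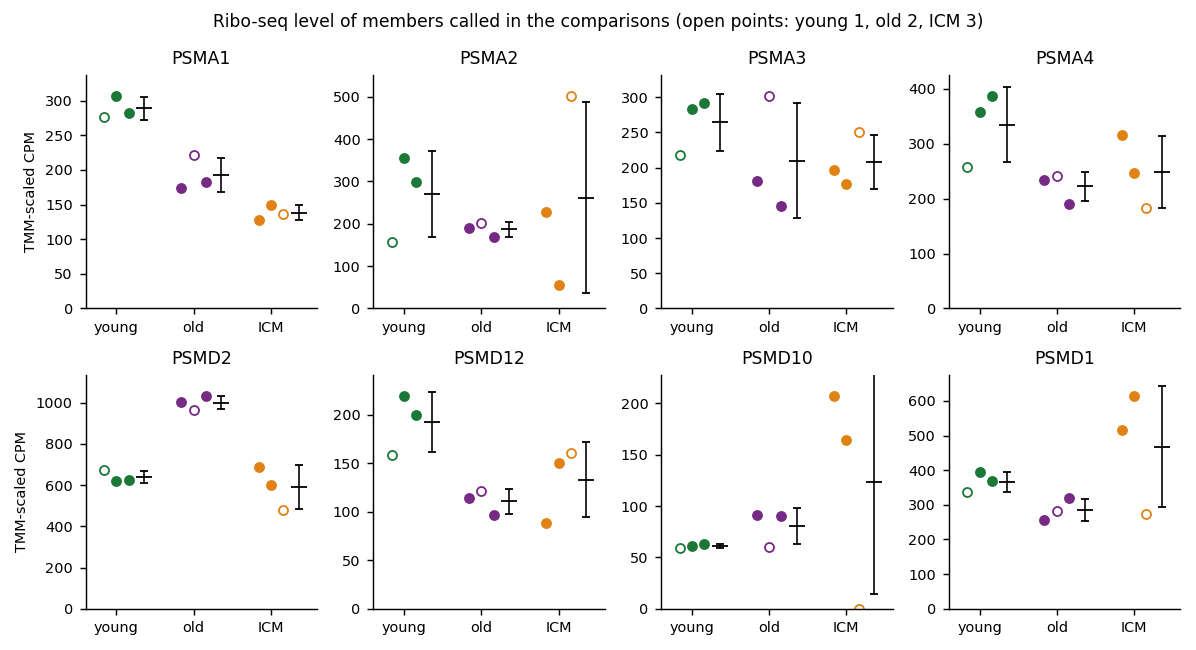
Ribo-seq level (coding-sequence CPM after TMM scaling, axes from 0) of PSMA1 to PSMA4, PSMD2, PSMD12, PSMD10 and PSMD1 in each of the 9 libraries, coloured by condition, with open points for young 1, old 2 and ICM 3 and the mean and SD (n = 3) in black. PSMA1 steps down from young to old to ICM, PSMD2 is highest in old cells, and the open points account for most of the spread of PSMA2, PSMA3, PSMD10 and PSMD1.

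The activators, which cap the core in place of or beside the regulatory particle, moved in unlike ways. PSME4, the nuclear activator PA200, rose in old cells, with 134, 140 and 139 mRNA CPM in young, 185, 196 and 195 in old and 123, 126 and 122 in ICM cells. The conditions did not overlap, at 0.48 ± 0.06 in old, -0.15 ± 0.06 in ICM and -0.64 ± 0.06 between ICM and old cells (adjusted p = 2.53e-09). The small ICM fall lost its call without young 2, ICM 1 or ICM 3 (adjusted p = 0.0801, 0.0769 and 0.0821). PSME4 footprints did not rise with it: they were 317, 169 and 163 CPM in young, 154, 80.5 and 115 in old and 138, 27.3 and 137 in ICM cells, every old and ICM library below every young one. The footprint log2 change in old cells was -0.37 ± 0.24 (adjusted p = 0.219), and young 1 and old 2 rested on 16 and 4 reads. It was -0.61, -0.67 and -0.74 without young 2, young 3 and old 1, -0.68 in DESeq2 and -0.23 without young 1, old 2 and ICM 3, and passed the test in none of these.

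PSME1 and PSME2 form the interferon-inducible activator. PSME1 mRNA fell from 102, 92.9 and 92.4 CPM in young to 64.3, 77.6 and 64 in old and 75, 76.9 and 74.4 in ICM cells (log2 change -0.47 ± 0.07 and -0.34 ± 0.07), below the young range in every library. PSME2 mRNA overlapped between all conditions, with 99, 85.1 and 81.5 CPM in young, 70.6, 89.6 and 69.6 in old and 79.6, 85.6 and 81.3 in ICM cells, and passed neither test (adjusted p = 0.0534 in old and 0.293 in ICM cells). PSME3, the nuclear activator PA28-gamma, held 176, 170 and 164 CPM in young, 171, 171 and 168 in old and 150, 152 and 148 in ICM cells. Its ICM libraries were below all others (log2 change -0.18 ± 0.06). The change did not pass without the lysates of young 1, old 2 and ICM 3 (-0.13, adjusted p = 0.076), whose mRNA-seq libraries did not stand apart. No activator footprint passed the test.

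The level of subunits relative to each other was read from coding-sequence reads per kilobase of coding sequence, scaled to an equal total of coding-sequence reads in each library (density). In young cells the highest and lowest footprint densities were 392 ± 77.1 (SD, n = 3) for PSMA4 and 317 ± 46.1 for PSMA3 in the alpha ring, and 670 ± 37.5 for PSMB1 and 334 ± 36.1 for PSMB7 in the constitutive beta ring. They were 101 ± 34.3 for PSMB10 and 33.9 ± 8.85 for PSMB9 among the inducible subunits, so each of these was below every constitutive core subunit. The ATPases lay between PSMC3 (207 ± 38) and PSMC5 (137 ± 20.7). The base outside the ATPases ranged from PSMD2 (216 ± 11.9) to PSMD4 (93.4 ± 18.1), the lid from PSMD8 (301 ± 60.6) to PSMD6 (109 ± 53.9), the chaperones from PSMD10 (82.7 ± 1.98) to PSMD5 (56 ± 17.2), and the activators from PSME1 (207 ± 25.7) to PSME4 (36 ± 14.9).

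Footprints of the 14 constitutive core subunits, which are built into the barrel in equal numbers, were close to even in the deeper young libraries. The SD of their log2 density was 0.32 in young 2 and 0.32 in young 3, with 2.12-fold and 2.14-fold between the highest and the lowest, while the mRNA density of the same lysates had an SD of 0.43 and 0.41. In the deeper old libraries the footprint SD was 0.50 (old 1) and 0.53 (old 3), with 2.90-fold and 3.19-fold between extremes, and the mRNA SD was 0.53 and 0.51. The 17 base and lid members gave 0.34 and 0.37 for footprints in young 2 and 3 and 0.60 and 0.62 in old 1 and 3. Their mRNA values were 0.61 to 0.75 over the 9 libraries. Genes outside the symbol rule were not in this set. The footprint density of the subunits was thus less even in both deeper old libraries than in both deeper young ones. These libraries also differed in make-up. Coding sequence held 77.8% and 54.7% of all counted reads in old 1 and 3, against 84.4% and 88.8% in young 2 and 3. The part of this in the unevenness was not tested.

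The fewest reads behind any core subunit were 136 and 400 in young 2 and 3 and 244 and 71 in old 1 and 3. In ICM 1, the deepest ICM library, the core SD was 0.68 with as few as 26 reads for a subunit, and the other Ribo-seq libraries had 8 or fewer for some subunit, so that their values of 0.51 to 0.82 carry more counting error. With 1 to 2 usable libraries a condition, no test of the spread was made. The median core density was 400 and 384 in young 2 and 3 and 292 and 276 in old 1 and 3. That of the base and lid members was 163 and 148 against 128 and 127. Densities carry no TMM scaling, which would narrow these gaps.

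**Figure D5:**
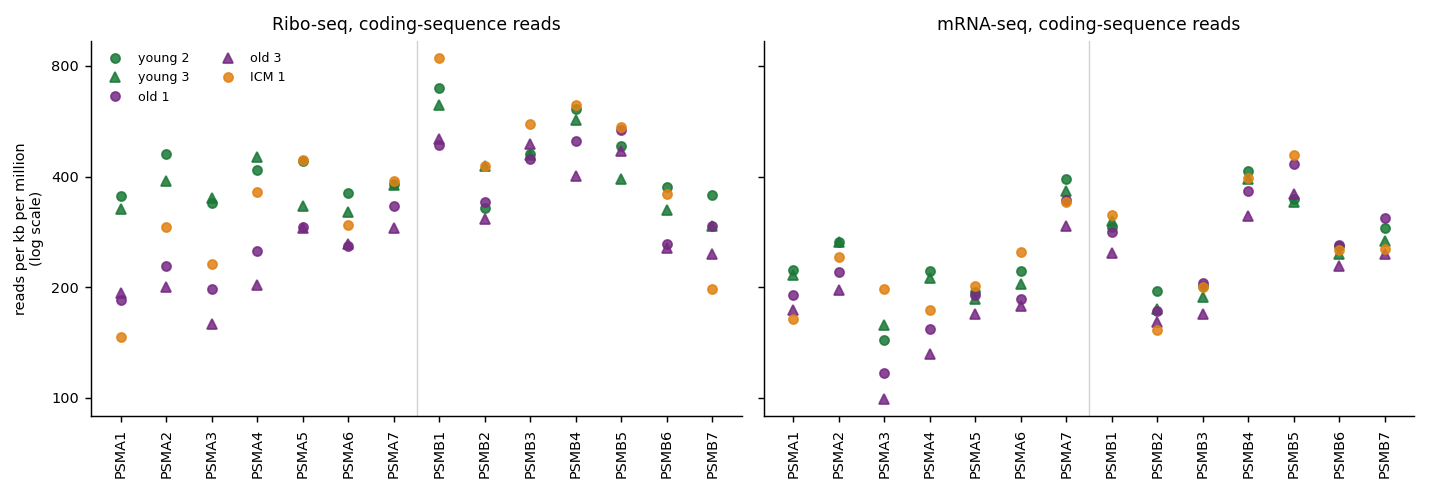
Density of coding-sequence reads (reads per kilobase at an equal library total, log axis) for the 7 alpha-ring subunits and, right of the grey line, the 7 constitutive beta-ring subunits, in the 5 Ribo-seq libraries with the most reads (left) and the mRNA-seq libraries of the same lysates (right). In the footprints, PSMA1 to PSMA4 of old 1 and old 3 (purple) lie below those of young 2 and young 3 (green), and the points of the beta ring overlap more.

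Summed over all members, the proteasome took 0.899%, 0.932% and 0.887% of coding-sequence footprints in young, 0.776%, 0.784% and 0.738% in old, and 0.912%, 0.74% and 0.754% in ICM libraries 1 to 3. Every old library was below every young one, and ICM 1 reached the young range. These shares divide by the raw read total of each library, without TMM scaling. The Ribo-seq TMM factors were 1.045, 1.021 and 1.021 in young and 0.927, 1.005 and 0.917 in old libraries. Scaling by them would narrow the gap between young and old cells. The mRNA share was 0.557%, 0.534% and 0.528% in young, 0.513%, 0.528% and 0.468% in old, and 0.52%, 0.515% and 0.517% in ICM cells. With 3 libraries against 3 an exact permutation test cannot go below p = 0.10, and none was made. The alpha ring took 0.184% ± 0.0257 (SD, n = 3) of footprints in young and 0.138% ± 0.024 in old cells, and the lid and base together 0.384% ± 0.00551 and 0.356% ± 0.00153.

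Footprints on the subunits lay almost wholly in the coding sequence. The 5′ UTRs held 0% to 0.712% of subunit footprints in the 9 libraries, where those of all genes held 2.43% to 44.7%, the highest being old 2. PSMD14, PSMB3 and PSMC5 had the most 5′ UTR footprints over all libraries, and PSMD14 had 29 beside 864 in its coding sequence. Of 731 non-zero coding-sequence values of the members, 31 (4.24%) were not whole numbers, the mark of reads divided between several places. RefSeq lists 51 pseudogenes named after subunits and 0 of them had rows of their own in the tables, so reads from such copies cannot be told apart from reads of the genes.

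Genes that work with the proteasome were taken from a list of 41 assembly factors, ubiquitin genes, shuttles and regulators. In mRNA 13 rose and 18 fell in ICM cells, 10 rose and 12 fell in old cells, and 10 were higher and 16 lower in ICM than in old cells. Of all genes 34.9% and 36.1%, 32.4% and 33.7%, and 30.7% and 32.6% did so. NFE2L2, the stress-responsive regulator, fell in old cells, from 196, 201 and 200 CPM to 113, 135 and 127 (log2 change -0.67 ± 0.07, adjusted p = 1.17e-08), and held 195, 207 and 195 in ICM cells. Its footprints also fell in old cells (log2 change -0.99 ± 0.22, adjusted p = 0.000784), though the groups overlapped. They ranged from 79.2 to 320 CPM in young and from 141 to 160 in old libraries. NFE2L1, the regulator that answers to loss of proteasome activity, was at 328, 328 and 327 CPM in young, 404, 387 and 415 in old and 312, 340 and 297 in ICM cells, higher in old than in young cells by 0.29 ± 0.06.

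The largest list changes in ICM cells were rises of MAFK (1.39), MAFG (1.11) and KEAP1 (1.02), small Maf partners and the repressor of NFE2L2, and falls of DDI2, the protease that activates NFE2L1 (-1.05), and of RPS27A, a ubiquitin fusion gene (-0.92). Of these, MAFK rose by 1.58 and RPS27A fell by 0.59 in old cells. MAFG held 51.9 to 63 mRNA CPM in old and 41.6 to 44.9 in young cells. FAF1, also on the list, held 43.3 to 51.6 mRNA CPM in young, 32.9 to 36.3 in old and 24 to 27.6 in ICM cells. KEAP1 was higher in ICM than in old cells by 1.10. POMP, the maturation factor of the core, passed neither mRNA test against young cells (0.14 and 0.06), and its footprints fell in old cells (log2 change -0.61 ± 0.20, adjusted p = 0.0201). PSMF1, an inhibitor of the core, fell in ICM cells from 118, 108 and 105 to 78.8, 86.4 and 81.8 CPM (-0.42 ± 0.06) and was level in old cells (-0.01).

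Of 9 genes of interferon signalling and antigen processing, 3 rose and 5 fell in mRNA in ICM cells, where 34.9% and 36.1% of all genes did. In old cells 5 rose and 2 fell, where 32.4% and 33.7% of all genes did. TAP2, the other chain of the transporter, rose by 0.92 and 0.81, and NLRC5, an activator of MHC class I genes, fell by 0.89 and 0.50. B2M, the light chain of MHC class I, was lower in ICM than in old cells by a log2 change of -0.77. In old cells the falls of PSMB8, PSMB9 and PSME1 mRNA thus stood beside rises of TAP1 and TAP2.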

How the data were processed

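Ribo-seq and mRNA-seq were performed on the same lysates, with 3 replicates a condition. The authors aligned the reads and deposited an estimated count for each gene in the 5′ UTR, coding sequence and 3′ UTR, of which 14.1% to 23.2% were not whole. Per the labels and the submitters' processing notes the tools were STAR 2.6.0c, featureCounts, DESeq2 and deepTools, with genome GRCh37. The placing of multiply matching reads and the use of strand are not given in the sources used here.

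Counts were rounded. mRNA-seq counts summed the 3 parts of a transcript, and Ribo-seq counts were of coding sequence. Each assay was fitted with edgeR 4.0.16 in R 4.3.3 (filterByExpr, TMM scaling, quasi-likelihood test, all 9 libraries in one fit), with Benjamini-Hochberg adjustment over all genes tested, and a gene was called at an adjusted p under 0.05. PSMB9 did not pass the Ribo-seq filter. Translational efficiency was the interaction of assay and condition with the lysate as a block. CPM values are TMM-scaled. DESeq2 1.42.0, other scaling, filters, thinning and left-out libraries were tried as alternatives. The fitting steps were tested on simulated data. Density used the MANE Select coding length of GENCODE v44lift37 (GRCh37). Promoters are the 250 bases before the start site in RefSeq GRCh38.p14.

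The members, gene lists and alternatives were chosen with earlier results of these data known. Values in every library were given for the 3 called members that rose most and the 3 that fell most in each measure and comparison, for PSMB8, PSMB9, PSMB10 and PSME1 to PSME4, and densities for the highest and lowest member of each role. Genes outside the subunits were named from the lists as the 3 largest called mRNA rises and falls of a comparison, with NFE2L1, NFE2L2, POMP and PSMF1 in any case. Other members named beside a small count were chosen after their values were seen. The depth of each library limits precision, and values cover the spread between 3 replicates. One gene of the interferon list is not reported here.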

Additional observations from a re-analysis of the deposited data

Results flagged for a closer look

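For 3 subunit mRNAs, ICM and old cells moved in opposite directions from young cells, each change passing edgeR's test when all libraries were used, and the difference between ICM and old cells was tested in the same fit. The log2 difference of ICM from old cells was 0.64 ± 0.08 (SE) for the alpha-ring subunit PSMA3 (adjusted p = 5.42e-07). It was -0.84 ± 0.06 for the base scaffold PSMD2 (adjusted p = 5.71e-11) and -0.64 ± 0.06 for the activator PSME4 (adjusted p = 2.53e-09), and in all of them the 3 ICM libraries lay wholly to one side of the 3 old libraries. The ICM fall of PSME4 from young cells was small (-0.15) and lost its call without young 2, ICM 1 or ICM 3 (adjusted p = 0.0801, 0.0769 and 0.0821).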

How the results depend on the processing

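The number of subunit mRNAs called stayed within 1.5 times its value under DESeq2, other scaling, no filter and the left-out libraries (23 to 27 in ICM against young, 17 to 21 in old against young and 16 to 23 in ICM against old cells when 1 lysate was left out). Thinned to Ribo-seq depth, 0 were called in ICM against young and 2 in ICM against old cells, and log2 changes turned to 0.12 for PSME3 (adjusted p = 0.762) and -0.059 for PSMD4 (0.91) in ICM against old cells and to -0.007 for PSMD4 (0.988), -0.057 for PSMC1 (0.87) and 0.23 for PSMC6 (0.599) in ICM against young cells. Footprint calls depended on the setting, with the cause not tested. In the order ICM against young, old against young and ICM against old cells, there were 4, 7 and 3 calls as reported, 1, 1 and 1 with DESeq2, 1, 0 and 0 with every library thinned to the shallowest, and 7, 9 and 5 without young 1, old 2 and ICM 3. Leaving out 1 lysate gave 1 to 6, 0 to 8 and 1 to 5, the 0 without young 2 and 1 without young 3. Fitting the compared conditions alone gave 2 in ICM against young and 13 in old against young cells. No filter gave 1 in ICM against old cells, and an adjusted p under 0.15 gave 11 in old against young and 6 in ICM against old cells. Efficiency calls, 0 in each comparison, were 2, 1 and 1 at an adjusted p under 0.15, 2, 4 and 1 without the lysate block, 2 in old against young cells with those conditions alone, 1 in ICM against young cells without the 3 libraries that stood apart, and 0 to 1 there with 1 lysate left out (1 without ICM 1), 0 to 0 in the others.

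Deviations of same-numbered libraries from their group means correlated at -0.0555 to 0.103 in mRNA-seq and 0.00467 to 0.0557 in Ribo-seq. Those of the 2 assays of one lysate, which are paired by design, correlated at -0.0795 to 0.136. The check therefore cannot decide whether replicate numbers pair the samples. With replicate number as a block, 27, 20 and 19 mRNAs and 3, 1 and 1 footprints were called in ICM against young, old against young and ICM against old cells.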

Other observations

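The 3′ UTRs held 6.47% to 7.14% of subunit mRNA-seq reads, against 24.6% to 28.9% for all genes, in the 9 libraries. Of the subunit footprints in 5′ UTRs, PSMD14, the deubiquitinase of the lid, had 29 (3.25% of its 5′ UTR and coding footprints), PSMC5, an ATPase, 22 (2.99%) and PSMB3, a beta-ring subunit, 25 (1.70%). Footprints in the 3′ UTRs were 8.46% of subunit footprints in old 2 and 3.15% in young 1, the highest of the 9 Ribo-seq libraries.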
